A study of Mus musculus with 37 samples.

Results

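The hippocampi of mice with post-traumatic epilepsy (PTE+) were compared between the injured hemisphere and the opposite one. The 4 PTE+ mice with a library from each side (a8_10, a9_17, a9_18 and a9_19) were found by the mouse name and the side in the sample labels, and each ipsilateral library was set against the contralateral library of the same animal. They gave 8 of the 37 libraries and 4 of the 20 mice of the series. The mice were wild type (the genotype label reads WT CD31 Injured, while the methods name the strain CD1), adult and male, and had received a controlled cortical impact (CCI), a piston blow to the exposed cortex of 1 hemisphere. They were called PTE+ because electroencephalography showed repeated epileptic episodes, and tissue was taken 4 months after injury. A further 8 injured mice without epilepsy (PTE-) and 5 sham mice, also wild type and sampled at 4 months, had libraries from both sides. Contralateral tissue came from the same epileptic brain, so it is a paired reference and not uninjured tissue.

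Astrocytes buffer extracellular potassium and glutamate, supply neurons with energy substrates and are coupled to each other by gap junctions. After an injury they can become reactive, a state marked by more GFAP and vimentin and by the secretion of complement, cytokines and matrix proteins. The lesion of a cortical impact lies on the ipsilateral side, above the hippocampus, and the hippocampus is a common site of seizures after brain injury.

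Cells were separated with magnetic beads against ACSA-2, an epitope of the astrocyte protein encoded by Atp1b2, and cDNA was amplified with a low-input kit before sequencing. Between 33819329 and 53272338 counts were assigned to genes in each of the 8 libraries, and 12912 to 15393 genes had at least 1 count, against 9020 to 15545 genes over the whole series. Levels are given as CPM (counts scaled to a common library size after TMM normalization), and 3 counts in a library were taken as the counting limit. The methods name no molecular identifiers, so this limit covers counting error only. Of 7450 genes with a median above 1000 counts, between 0 and 69 were at or under the limit in 7 libraries and 322 in the ipsilateral library of a9_19.

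Astrocyte transcripts dominated the marker genes on both sides. The 25 astrocyte markers summed to between 109900 and 131000 TPM (a relative unit corrected for transcript length) contralaterally and between 107200 and 125700 TPM ipsilaterally, and the sides overlapped. The defining markers Aqp4, Slc1a3, Aldh1l1, Gja1 and Atp1b2 were above the counting limit in all 8 libraries. Atp1b2, the gene of the sorting antigen, was at 415, 483, 791 and 703 CPM contralaterally and at 450, 489, 639 and 691 CPM ipsilaterally in mice a8_10, a9_17, a9_18 and a9_19, which is the order of 4 values throughout. Its log2 fold change (ipsilateral over contralateral) was -0.05 (SE 0.13), with 2 mice in each direction. Transcripts of other cell types were also counted. Cd3e, the defining marker of T cells, was at 0 CPM in 7 libraries and at 0.351 CPM in 1, and Mog, of myelinating oligodendrocytes, was above the limit in 3 contralateral and 0 ipsilateral libraries. Ttr, the main transcript of the choroid plexus, was at 0 CPM in 7 libraries and at 503 CPM in the ipsilateral library of a9_18.

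Microglial transcripts separated 2 mice from the other 2. The 20 microglial genes summed to 1483, 1346, 761 and 748 TPM contralaterally and to 1225, 107, 897 and 82.1 TPM ipsilaterally. The ipsilateral sums of a9_17 and a9_19 were therefore 0.0791 and 0.11 of the contralateral ones, whereas the ratios of a8_10 and a9_18 were 0.826 and 1.18. Cx3cr1, the fractalkine receptor that defines microglia, was at 31.7, 82.7, 24.0 and 69.6 CPM contralaterally and at 100, 0, 56.9 and 0.0205 CPM ipsilaterally. Fewer cells of a type and less RNA per cell cannot be told apart in libraries of this kind. The transcripts of endothelial, mural and fibroblast cells were lowest in the ipsilateral library of a9_19, with 8979, 4969, 2160 and 2338 TPM contralaterally and 4064, 3362, 2219 and 1012 TPM ipsilaterally. Their sides overlapped.

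**Figure D1:**
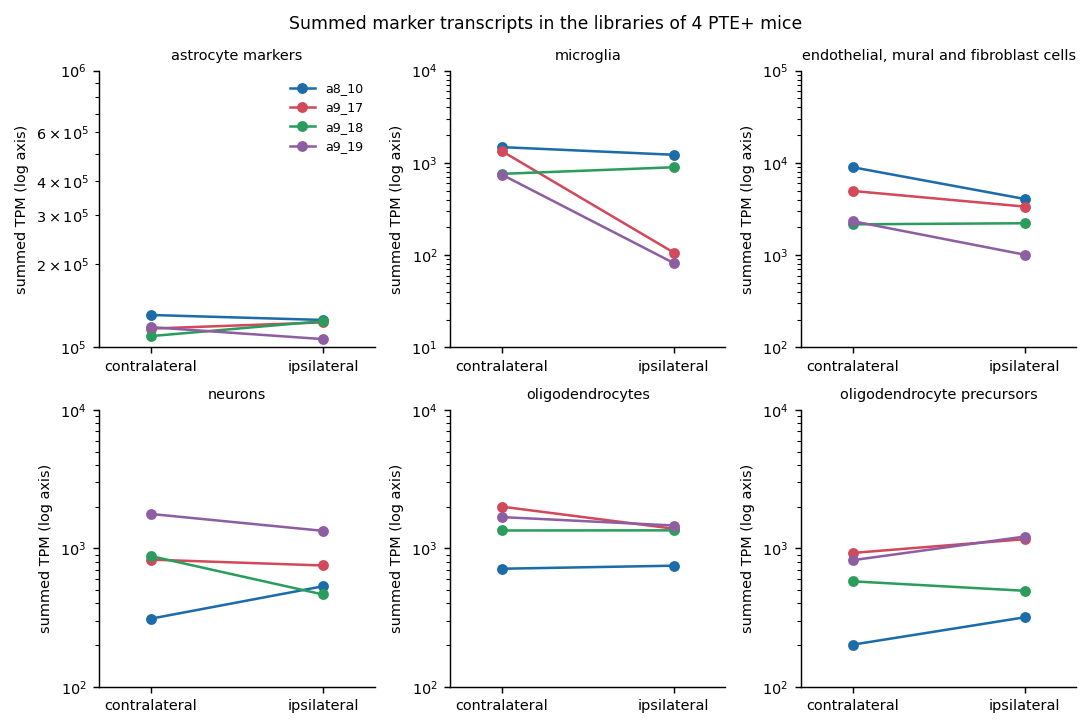
Summed TPM (log axis) of 6 lists of cell type markers in the contralateral and ipsilateral library of each PTE+ mouse, with a line for each mouse. The ipsilateral microglial sum is 107 and 82.1 TPM in a9_17 and a9_19 and 1225 and 897 TPM in a8_10 and a9_18, while the astrocyte sums lie between 107200 and 131000 TPM.

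No gene separated the sides beyond the spread between mice once all genes were taken into account. Of 13672 genes tested with edgeR's quasi-likelihood test, in which the mouse was a block, 0 had an adjusted p under 0.05 (0.0% called), and every adjusted p was 1. Without adjustment 328 genes (2.4%) had a p under 0.05, and limma voom and limma on log2 TPM likewise called 0 genes after adjustment. DESeq2 called 168 genes at an adjusted p under 0.05, of which 60 were higher and 108 lower ipsilaterally. The common biological coefficient of variation was 1.04 and the median standard error of a log2 fold change was 0.636 among 11628 genes with a mean TPM above 5. Only 18.2% of those genes had a 95% interval that lay within a 2-fold change in either direction, so a difference of 2-fold could be bounded for 2116 genes alone. The median log2 fold change was -0.08 over all genes tested.

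The criteria that the methods give for a differentially expressed gene (unadjusted p under 0.05, at least 1.2-fold, mean TPM above 5 on at least 1 side) were met by 300 genes, 2.19% of those tested. Of these, 162 were higher (1.18%) and 138 lower (1.01%) ipsilaterally. With DESeq2, the tool that the methods name, 1108 genes met the same criteria, and with a fit of all 34 paired libraries 73 genes did. The differences were mostly small, with 166 of the 300 under 2-fold. All 4 mice had the same direction in 264 of them, and the 4 values of each side did not overlap in 90, against 303 genes without overlap (2.22%) among all genes tested. Without a9_17 and a9_19, the mice with few ipsilateral microglial transcripts, 254 genes met the criteria, of which 52 were among the 300. Leaving out any single mouse kept between 106 (without a9_19) and 121 (without a9_18) of the 300. The calls therefore changed whichever mouse was left out, and the part of microglia in this was not tested. A gene that met the criteria is called higher or lower below, always without an adjusted p under 0.05.

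**Figure D2:**
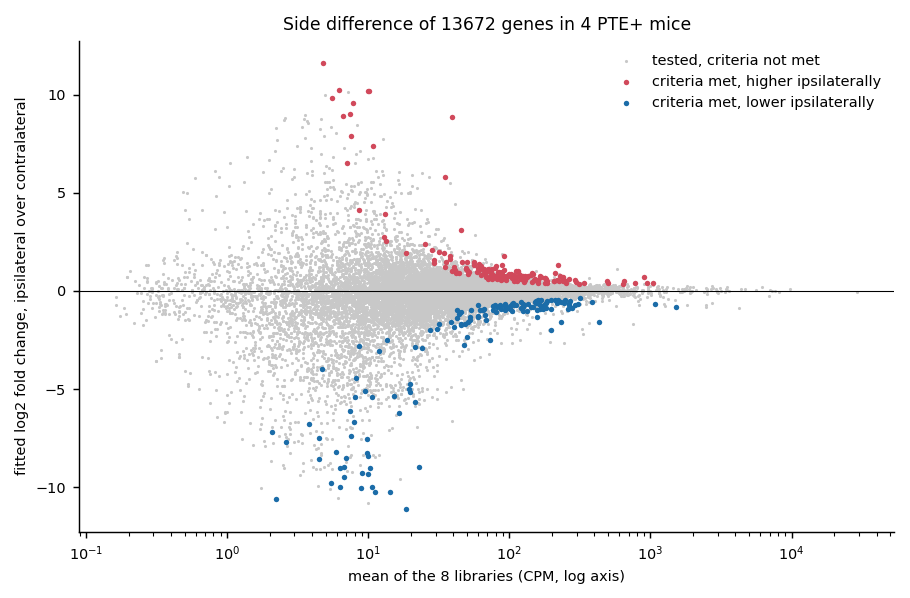
Fitted log2 fold change (ipsilateral over contralateral) of the 13672 genes tested against their mean level in the 8 libraries (CPM, log axis), with the 162 genes that met the criteria and were higher in red and the 138 that were lower in blue. The largest fold changes belong to genes of low mean level, while most genes that met the criteria lie within 2-fold.

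The 4 mice agreed little with each other on the side difference. Over all genes tested, the Spearman correlation of the within-mouse differences lay between 0.0127 and 0.111 over the 6 pairs of mice, given as a description across genes that are not independent. All 4 mice had the same direction in 858 genes higher (6.28%) and 986 genes lower (7.21%) ipsilaterally. A change of at least 1 on the log2(CPM + 1) scale in every mouse was found in 35 genes higher (0.298%) and 57 lower (0.485%) of 11755 genes with a mean TPM above 5. An exact test by sign changes over 4 pairs cannot give a p below 0.125, so no single gene could pass such a test.

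The smallest p among the genes that met the criteria belonged to Snhg11, a long non-coding RNA that hosts small nucleolar RNAs and is abundant in neurons. It was at 59.6, 152, 103 and 158 CPM contralaterally and at 142, 414, 180 and 557 CPM ipsilaterally. Each mouse was higher ipsilaterally, and the sides overlapped only because mice differed in level. Its log2 fold change was 1.33 (SE 0.21, unadjusted p = 0.000822, adjusted p = 1 from edgeR), between 1.16 and 1.49 when each mouse was left out in turn. The neuronal markers summed to 310, 829, 879 and 1772 TPM contralaterally and 532, 752, 464 and 1338 TPM ipsilaterally. Their sum was lower ipsilaterally in 3 of the 4 PTE+ mice, in 1 of 8 PTE- mice and in 3 of 5 sham mice. The median ratio of ipsilateral to contralateral was 0.831 in PTE+, 1.94 in PTE- and 0.993 in sham mice. The part of neurons in the result was not tested.

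Angptl4, a secreted inhibitor of lipoprotein lipase, was at 40.7, 70.7, 79.8 and 110 CPM contralaterally and at 108, 150, 144 and 191 CPM ipsilaterally (log2 fold change 1.03, SE 0.20, p = 0.00265). Agt encodes angiotensinogen, the precursor of the angiotensins, which in the brain is made mainly by astrocytes. It was at 801, 948, 376 and 666 CPM contralaterally and at 1071, 1255, 803 and 1256 CPM ipsilaterally (log2 fold change 0.71, SE 0.17, p = 0.00653). All 4 mice were higher ipsilaterally for both genes, while the ranges of the sides overlapped. Alcam, an adhesion molecule of the immunoglobulin family, was at 34.01, 46.3, 50.9 and 53.1 CPM contralaterally and at 72.7, 69.7, 160 and 219 CPM ipsilaterally (log2 fold change 1.35, SE 0.32), with no overlap between the sides.

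Vars, the cytosolic valyl-tRNA synthetase, was at 46.2, 52.5, 68.8 and 66.2 CPM contralaterally and at 130, 108, 98.3 and 163 CPM ipsilaterally (log2 fold change 1.09, SE 0.26), again without overlap. Tmem165, a Golgi protein needed for glycosylation, did not overlap either, lying between 33.4 and 72.6 CPM contralaterally and between 89.9 and 121 CPM ipsilaterally. Pycr1, a mitochondrial enzyme of proline synthesis, had at most 3 counts in every contralateral library and was at 14.8, 6.72, 13.2 and 18.1 CPM ipsilaterally. Its ipsilateral mean was at least 171-fold the contralateral mean when the limit of 3 counts was taken in each contralateral library. Fam91a1, Ndfip2 (an adaptor of Nedd4 ubiquitin ligases) and Cables1 completed the 10 higher genes with the smallest p that were counted in each ipsilateral library, with log2 fold changes of 1.46, 0.80 and 0.70. The exons of none of these 10 genes overlapped those of another gene in the tables.

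Among the lower genes counted in each contralateral library and lower in every mouse, Esyt1 had the smallest p. It encodes extended synaptotagmin 1, which tethers the endoplasmic reticulum to the plasma membrane. It was at 100, 117, 70.1 and 24.5 CPM contralaterally and at 10.9, 42.8, 16.4 and 1.15 CPM ipsilaterally (log2 fold change -2.77, SE 0.63, p = 0.00501). Every mouse was lower ipsilaterally by at least 1 on the log2 scale, and the ranges overlapped only through the contralateral value of a9_19.

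Mprip, which targets myosin phosphatase to actin, was at 338, 167, 180 and 165 CPM contralaterally and 177, 111, 128 and 78.8 CPM ipsilaterally (log2 fold change -0.77, SE 0.18). Ogdh, a subunit of the oxoglutarate dehydrogenase complex of the citric acid cycle, was at 279, 351, 463 and 299 CPM contralaterally and 159, 243, 330 and 101 CPM ipsilaterally (log2 fold change -0.85, SE 0.22). Both genes were lower ipsilaterally in all 4 mice, and their sides overlapped. Snu13, a protein of the spliceosome and of small nucleolar ribonucleoproteins, was at 138, 115, 115 and 106 CPM contralaterally and 73.7, 59.5, 66.9 and 75.6 CPM ipsilaterally (log2 fold change -0.78, SE 0.21), with no overlap. Kctd10 was lower by 0.87 on the log2 scale as a difference of sides, but its exons overlap those of Myo1h on the other strand, and the counting is not stated to use strand.

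Epas1, a hypoxia-inducible factor that endothelium expresses, was at 304, 221, 228 and 121 CPM contralaterally and 192, 96.8, 170 and 82.3 CPM ipsilaterally (log2 fold change -0.71, SE 0.19, p = 0.0107). Slc9a3r2, a scaffold protein, and Tfrc, the transferrin receptor of iron uptake, had log2 fold changes of -0.90 (SE 0.24) and -0.95 (SE 0.26). All 3 genes were lower ipsilaterally in 4 of 4 mice, and each lost its unadjusted p under 0.05 in 1 of the 4 fits that left out a mouse. The summed transcripts of endothelial, mural and fibroblast cells were lower in 3 of them (0.453, 0.677, 1.03 and 0.433 of the contralateral sum). The part of these cells in the result was not tested.

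Il10ra, the receptor of interleukin 10, was at 24.0, 22.4, 20.6 and 3.26 CPM contralaterally and was above the counting limit ipsilaterally in a8_10 only, at 1.38 CPM. Its sides did not overlap. The ipsilateral microglial sum was 0.826, 0.0791, 1.18 and 0.11 of the contralateral one in the same mice, and the part of microglia in the result was not tested. Prkcd, a protein kinase C, was at 79.6, 94.5, 98.4 and 60.7 CPM contralaterally and at 21.1, 64.8, 35.1 and 28.04 CPM ipsilaterally (log2 fold change -1.27, SE 0.35). A gene that fails to be counted in some libraries of its higher side can also meet the criteria. Fibin (higher) and Pon3, Klk8 and Sema3g (lower) are of this kind, each with 3 of 4 mice in the stated direction and the other mouse uncounted on both sides.

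**Figure D3:**
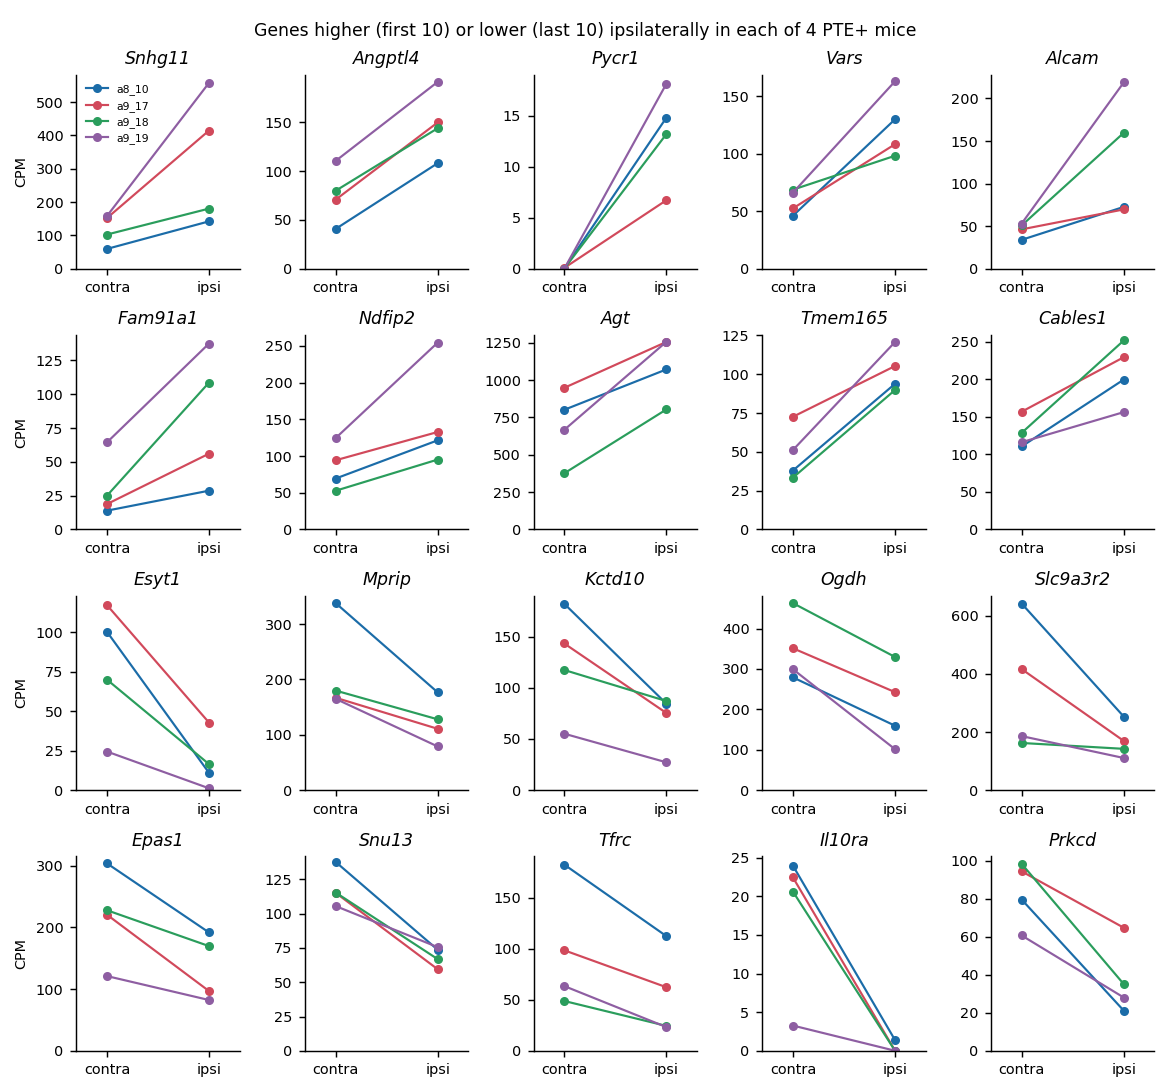
Levels (CPM) of 10 genes higher and 10 genes lower ipsilaterally that met the criteria, with a line for each of the 4 PTE+ mice from its contralateral to its ipsilateral library. Every ipsilateral point lies above its contralateral one in the first 10 panels and below it in the last 10, as the choice of the genes required.

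A small number of genes were counted on 1 side only. Above 3 counts in all 4 ipsilateral and no contralateral libraries were 4 genes, and in all 4 contralateral and no ipsilateral libraries 7 genes, named here after their values were seen. The first 4 were Pycr1, Atp7b (a copper transporter, at least 116-fold higher), Krt19 (a keratin, at least 122-fold) and Ogn (osteoglycin, a matrix proteoglycan, at least 161-fold). Each fold given here compares the mean of the 4 mice with 3 counts in each library of the other side, and does not bound single mice. Ogn was at 0.264, 5.09, 21.4 and 23.2 CPM ipsilaterally. Krt19 was at 4.58, 2.42, 14.6 and 16.3 CPM ipsilaterally and at 0 CPM in each contralateral library. The 7 lower ones included Alox5ap, which activates 5-lipoxygenase for leukotriene synthesis and is a gene of myeloid cells. It was at 4.56, 5.30, 5.36 and 2.45 CPM contralaterally and at 0 CPM in each ipsilateral library, at least 74.3-fold lower. Sgo2a, a protector of centromeric cohesion, was at least 207-fold lower, from 9.23, 2.48, 34.9 and 2.57 CPM contralaterally. The others were Ifi44, Kcnj4, Kcnk6, Irs3 and Rtp3. Pycr1, Krt19, Ogn and Alox5ap met the criteria. Kcnk6 and Irs3 were not tested, and the rest had a mean TPM under 5 on both sides. For these, higher and lower describe the levels only.

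The genes of astrocyte reactivity were tested next, as counts within 34 lists. Of 11 pan-reactive genes tested, 0 met the criteria in either direction and the median log2 fold change was -0.22, against -0.08 over all genes, and 0.067 without a9_17. Gfap, the intermediate filament of astrocytes, was at 625, 849, 1534 and 1197 CPM contralaterally and at 987, 398, 1690 and 799 CPM ipsilaterally. It was higher ipsilaterally in a8_10 and a9_18 and lower in a9_17 and a9_19, with a log2 fold change of -0.22 (SE 0.31, 95% interval -0.98 to 0.54). Vim, encoding vimentin, had a log2 fold change of 0.09 (SE 0.14, 95% interval -0.26 to 0.44), so a 2-fold difference lay outside its interval. Lcn2 and Timp1, secreted proteins of acute reactivity, were not tested. Lcn2 was above the limit in 1 contralateral and 2 ipsilateral libraries, and Timp1 in 0 contralateral libraries and 1 ipsilateral library.

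Of 12 genes of intermediate filaments and the cytoskeleton, 0 were higher and 2 were lower (1.01% of all genes). Their median was -0.34 and 11 of 12 values were negative, against 7517 of 13672 over all genes. Without a8_10 or without a9_19, 0 of the 12 met the criteria. The 2 were Cald1 (caldesmon, log2 fold change -0.66, SE 0.22) and Tpm1 (a tropomyosin, log2 fold change -1.01, SE 0.35), both actin-binding proteins that smooth muscle and mural cells express too. Of 11 A1 genes 1 was higher and of 8 A2 genes 1 was higher (1.18% of all genes). The A1 and A2 sets are those described for inflammatory and ischaemic reactivity. The A2 gene was Sphk1, sphingosine kinase 1, at 0.0549, 0.67, 0.15 and 0.0558 CPM contralaterally and at 9.05, 1.77, 14.7 and 30.6 CPM ipsilaterally. Its sides did not overlap, but 2 contralateral libraries held 3 counts or fewer.

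Complement genes gave 2 higher of 14 tested (1.18% of all genes) and 0 lower. Their median log2 fold change of 0.04 turned to -0.15 without a9_17, -1.02 without a9_18 and -0.21 without a9_19. The A1 gene C3, the central component of complement, was at 24.9, 6.56, 41.0 and 0 CPM contralaterally and at 94.8, 58.6, 136 and 3.47 CPM ipsilaterally. It was higher ipsilaterally in all 4 mice, by 1.72 to 2.99 on the log2(CPM + 1) scale of the 34 paired libraries, and its fitted log2 fold change was 3.09 (SE 1.12, p = 0.0348). C4b, the component that acts upstream of C3 in the classical pathway, was at 144, 143, 242 and 161 CPM contralaterally and at 365, 138, 510 and 227 CPM ipsilaterally. It was higher in 3 of 4 mice and nearly equal in a9_17 (log2 fold change 0.71, SE 0.27, p = 0.0382). For both genes, the unadjusted p stayed under 0.05 in 1 of the 4 fits that each left out a mouse, reaching 0.0967 and 0.136. Reads of C4b may be shared with its near-identical copy C4a. The initiators C1qa, C1qb and C1qc, which microglia make, were at 0 CPM ipsilaterally in a9_17 and a9_19, the mice with few microglial transcripts.

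Among the coupling and homeostatic genes of astrocytes, all 3 connexins tested had positive values. Gjb6, encoding connexin 30, was at 684, 616, 668 and 688 CPM contralaterally and at 683, 878, 929 and 1117 CPM ipsilaterally, so it was higher in 3 mice and equal in a8_10 (log2 fold change 0.42, SE 0.16, p = 0.0372). Gja1, encoding connexin 43, had a log2 fold change of 0.20 (SE 0.12), with 4 of 4 mice higher under the scaling of the 8 libraries and 3 of 4 under that of the 34 libraries. S100b, a calcium-binding protein, was at 195, 201, 285 and 230 CPM contralaterally and at 205, 91.5, 170 and 77.4 CPM ipsilaterally (log2 fold change -0.85, SE 0.30, p = 0.0306). It was lower in 3 mice and not in a8_10.

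Of 18 genes of glutamate and GABA handling and 20 of potassium, sodium and water buffering, 0 met the criteria. Their medians were 0.04 and -0.01, and lay between -0.05 and 0.08 without each mouse in turn. Glul, glutamine synthetase, had a log2 fold change of -0.26 (SE 0.13, 95% interval -0.59 to 0.07) and Aqp4, the water channel of perivascular endfeet, one of 0.14. Cst3, encoding the protease inhibitor cystatin C, was at 11420, 5245, 5624 and 8446 CPM contralaterally and at 8674, 5233, 5360 and 5707 CPM ipsilaterally. Its log2 fold change was -0.26 (SE 0.15, p = 0.139), with 4 of 4 mice lower under the scaling of the 8 libraries and 3 of 4 under that of the 34 libraries. Glycolysis (24 tested), cholesterol synthesis (22), adenosine and purine signalling (10) and the glucocorticoid response (12) also gave 0 genes, with medians between -0.05 and 0.12, and between -0.20 and 0.11 without each mouse in turn.

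Stress and interferon genes gave few calls. Mt3, a brain metallothionein, was the only one of 17 metallothionein and antioxidant genes to meet the criteria (1.01% of all genes were lower). It was at 339, 185, 241 and 198 CPM contralaterally and 316, 137, 139 and 143 CPM ipsilaterally (log2 fold change -0.45, SE 0.17). It was lower in all 4 mice. Of 18 hypoxia genes, Epas1 was the only one (1.01% of all genes were lower). Of 27 interferon genes, 16 immediate early genes, 13 heat shock chaperones, 22 matrix genes, 19 synapse-organizing and phagocytic genes and 24 growth factor and injury genes, 0 met the criteria. Fos, the immediate early gene of recent activity, was at 298, 57.9, 40.7 and 44.1 CPM contralaterally and at 135, 106, 3.43 and 139 CPM ipsilaterally, with 2 mice in each direction. Cxcl10, an interferon-induced chemokine, was above the limit in 3 contralateral and 3 ipsilateral libraries, with a log2 fold change of -0.45 (SE 3.33) whose sign depended on the method.

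**Figure D4:**
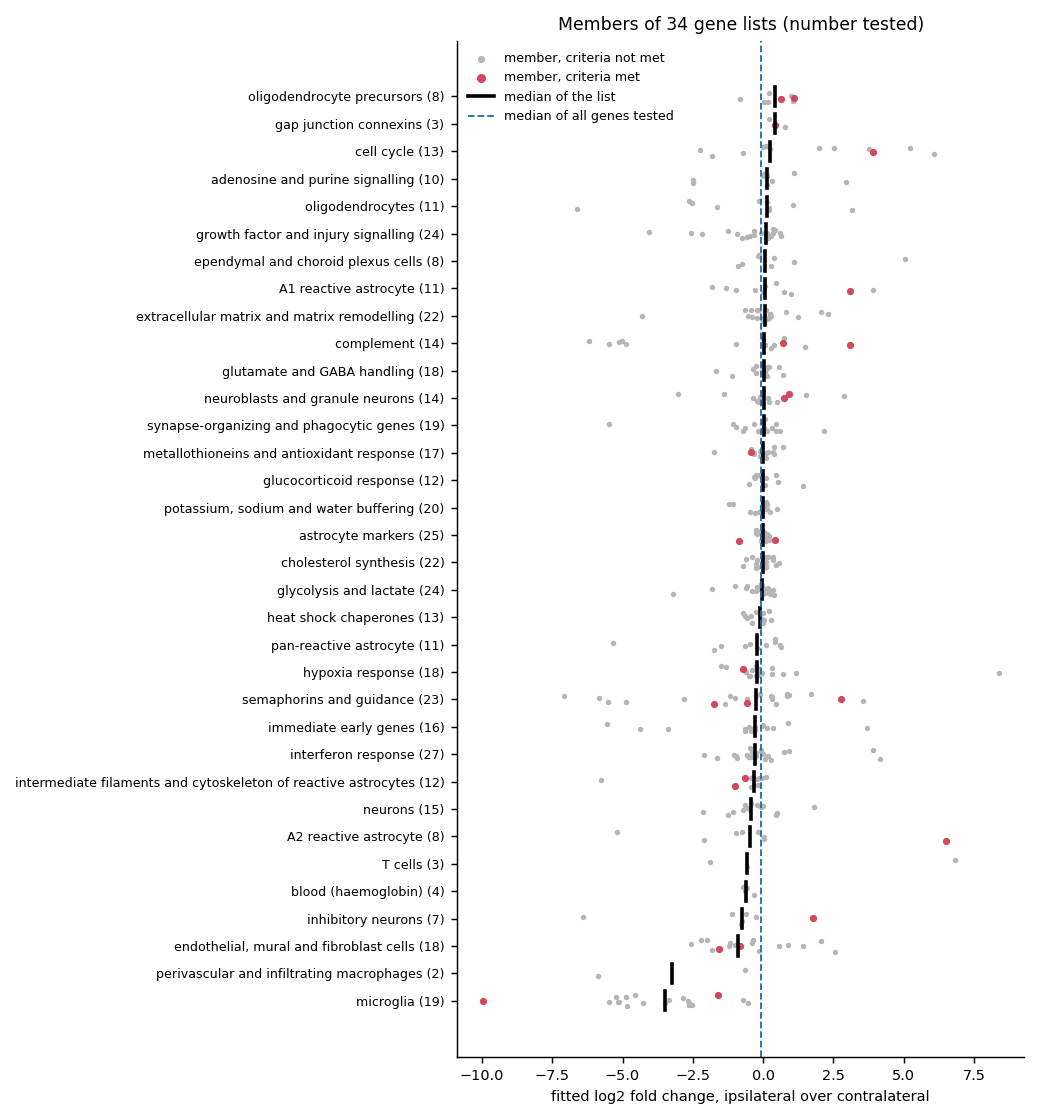
Fitted log2 fold change (ipsilateral over contralateral) of the tested members of 34 gene lists, ordered by their median (black bar), with members that met the criteria in red and the median of all genes tested (-0.08) as a dashed line. The microglial list lies lowest, with a median of -3.49 and 19 of 19 values below 0, and the astrocyte markers have a median of -0.01.

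Microglial genes had the lowest median of the 34 lists, -3.49 over 19 genes tested, all with negative values. Of these, 2 were lower by the criteria (1.01% of all genes), and 6 were lower in all 4 mice (7.21% of all genes). Tmem119, a defining surface protein of microglia, was at 91.6, 49.9, 40.3 and 33.2 CPM contralaterally and at 36.2, 7.82, 40.9 and 6.81 CPM ipsilaterally (log2 fold change -1.59, SE 0.62, p = 0.0434). It was lower in 3 mice and equal in a9_18. Gpr34, a lysophosphatidylserine receptor of microglia, was above the limit ipsilaterally in a8_10 alone, at 6.45 CPM, against 8.45 to 13.4 CPM contralaterally. Without a9_17 and a9_19 the median of the list was -0.06, with 7 values positive and 12 negative, and 0 members met the criteria. A low ipsilateral sum was not particular to PTE+ mice, since 1 of 8 PTE- mice had a ratio of ipsilateral to contralateral under 0.25 as well, with ratios from 0.194 to 33.1 in PTE- and from 0.612 to 2.22 in sham mice.

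Vascular genes were 13 negative and 5 positive of 18 tested, against 7517 negative of 13672 over all genes. Their median was -0.91, and 2 were lower by the criteria (1.01% of all genes). Cldn5, the tight junction protein of brain endothelium, was at 1364, 532, 240 and 236 CPM contralaterally and at 656, 201, 205 and 16.4 CPM ipsilaterally (log2 fold change -1.56, SE 0.61, p = 0.0447). It was lower in all 4 mice and lowest in a9_19, without which the median of the list was -0.17. Rgs5, a marker of pericytes, had a log2 fold change of -0.81 (SE 0.30). Col3a1, a fibrillar collagen of fibroblasts that was named after its values were seen, was at 11.7, 17.6, 0.262 and 14.3 CPM contralaterally and at 19.6, 38.9, 66.5 and 94.8 CPM ipsilaterally, higher in 4 of 4 mice with a log2 fold change of 2.56 and p = 0.113, so it did not meet the criteria.

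Genes of oligodendrocyte precursors were 7 positive and 1 negative of 8 tested, against 6155 positive of 13672 over all genes. Their median was 0.43, and 2 were higher by the criteria (1.18% of all genes). C1ql1, a synaptic organizer that these cells express, was at 10.8, 80.1, 19.9 and 79.5 CPM contralaterally and at 33.9, 109, 57.0 and 137 CPM ipsilaterally (log2 fold change 1.10, SE 0.34, p = 0.018). Gpr17, a receptor of committed precursors, was at 15.6, 72.7, 59.9 and 144 CPM contralaterally and at 23.9, 121, 91.7 and 218 CPM ipsilaterally (log2 fold change 0.64, SE 0.20, p = 0.0192). Both were higher in all 4 mice, within levels that spanned a wider range between mice than between sides. Exons of Gpr17 overlap those of Lims2 on the other strand, so without strand the reads of the pair cannot be told apart. Of 11 oligodendrocyte genes, 0 met the criteria. Their median was 0.12, with 6 values positive and 5 negative. In all 4 mice 1 gene was higher (Cnp) and 1 lower (Mobp). The differences of Mobp lay between -6.52 and -0.456 on the log2(CPM + 1) scale of the 34 paired libraries. Mbp was at 160, 799, 473 and 667 CPM contralaterally and at 183, 47.4, 534 and 86.1 CPM ipsilaterally, low in a9_17 and a9_19 like the microglial genes. The summed TPM of the list, however, fell less in these mice than that of the microglial list. Its ipsilateral sum was 0.6922 and 0.8696 of the contralateral one in these mice, against 0.0791 and 0.11 for microglia.

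Of 15 neuronal genes 0 met the criteria. Their median was -0.44 with 11 values negative, and it was 0.03 without a9_19 and -0.78 without a8_10. In the fit without a8_10, 3 of them were lower by the criteria, against 160 of 13906 over all genes. Rbfox3, encoding the nuclear antigen NeuN, had 2 mice in each direction. Of 7 genes of inhibitory neurons, 6 had negative values, against 7517 of 13672 over all genes, and the median was -0.76. This median was -0.98 without a8_10, -0.23 without a9_17, -0.68 without a9_18 and -0.29 without a9_19. Without both a9_17 and a9_19 it was 0.08, with 4 values positive and 2 negative. The gene with a positive value among the 7 was Reln, the reelin of interneurons, which met the criteria (1.18% of all genes were higher). Reln was higher in 4 of 4 mice, at 25.03, 358, 160 and 54.8 CPM ipsilaterally against 18.5, 41.2, 68.8 and 11.2 CPM contralaterally (log2 fold change 1.76, SE 0.50, p = 0.0137). Of 14 genes of neuroblasts and granule neurons, 2 were higher (1.18% of all genes). Sox4, a transcription factor of immature neurons, was at 38.8, 70.2, 67.5 and 63.7 CPM contralaterally and at 132, 90.4, 87.5 and 145 CPM ipsilaterally, without overlap (log2 fold change 0.92, SE 0.33). Stmn1, a microtubule regulator, had a log2 fold change of 0.74 (SE 0.28) with 3 of 4 mice higher. Dcx, a microtubule protein of neuroblasts, was above the limit in 2 libraries on each side, with 1 mouse higher and 2 lower. Prox1, a transcription factor of granule cells, had a log2 fold change of 1.52 (SE 1.21) with 2 mice in each direction.

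Guidance molecules gave 1 higher and 2 lower of 23 tested (1.18% and 1.01% of all genes), and 6 were lower in all 4 mice (7.21% of all genes). Their median log2 fold change was -0.24 and changed sign to 0.36 without a9_19. Nrp1, the neuropilin that binds class 3 semaphorins and VEGF, was at 132, 69.6, 18.3 and 65.1 CPM contralaterally and at 34.9, 19.4, 15.3 and 8.59 CPM ipsilaterally (log2 fold change -1.75, SE 0.55, p = 0.0209). Plxnb2, a receptor of class 4 semaphorins, had a log2 fold change of -0.56 (SE 0.20), lower in 4 of 4 mice. Robo2, a receptor of Slit proteins, was at 2.61, 1.66, 2.94 and 7.00 CPM contralaterally and at 16.7, 26.6, 13.5 and 32.3 CPM ipsilaterally, without overlap (log2 fold change 2.75, SE 0.95, p = 0.0285).

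Sema3f, a secreted ligand of neuropilin 2, was listed because of an earlier comparison of contralateral libraries that included these 4, so its contralateral level is no independent evidence. It was at 29.3, 33.3, 20.1 and 15.1 CPM contralaterally and at 12.7, 1.22, 0 and 0 CPM ipsilaterally. The 4 ipsilateral values all lay below the 4 contralateral ones, with a fitted log2 fold change of -7.07 (SE 3.10, p = 0.0647) that depends on the prior count because 2 ipsilateral libraries were at 0. It therefore did not meet the criteria. Its receptor Nrp2, named after its values were seen, was at 24.0, 19.1, 82.7 and 15.8 CPM contralaterally and at 1.11, 17.3, 30.6 and 0.41 CPM ipsilaterally, lower in 4 of 4 mice with p = 0.0699.

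Of the remaining lists, the cell cycle gave 1 higher of 13 genes (1.18% of all genes). It was Cenpf, a kinetochore protein (log2 fold change 3.91, SE 1.32). Cenpf lay between 0.195 and 7.16 CPM contralaterally and between 12.1 and 36.4 CPM ipsilaterally and was higher in 4 of 4 mice. The 8 ependymal and choroid plexus genes, the 4 haemoglobin genes, the 3 T cell genes and the 2 macrophage genes tested gave 0. Aldoa and Trbc2 could not be matched to a single row and were left out of their lists.

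Whether the side difference was particular to epileptic mice was tested in a fit of all 34 libraries of the 17 mice with both sides. Of 15731 genes, 0 had an adjusted p under 0.05 for a difference between the side difference of PTE+ and that of PTE- mice (0.0%), and 182 had an unadjusted p under 0.05 (1.16%). Against sham mice the numbers were 0 (0.0%) and 93 (0.591%). Within PTE- mice 315 genes (2.0%) and within sham mice 52 genes (0.331%) had an unadjusted p under 0.05 for their own side difference, and 0 after adjustment in each. Limma voom called 0 genes for the difference from sham mice and 2 for the difference from PTE- mice, Sgo2a and Irak4, both of which edgeR gave an adjusted p of 1.

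Of all genes, 50.7% had the direction of the PTE+ fit in PTE- mice and 51.3% in sham mice. Of the 20 named genes chosen for a small p and 1 direction in 4 mice, 13 had it in PTE- and 14 in sham mice. Snhg11 and Agt were the 2 that also had an unadjusted p under 0.05 in PTE- mice. Snhg11 was higher ipsilaterally in 7 of 8 PTE- mice, with a log2 fold change of 1.29 (SE 0.34), and in 3 of 5 sham mice, with one of 0.08. Agt was higher in 7 of 8 PTE- mice (log2 fold change 0.54, SE 0.23) and in 3 of 5 sham mice. C4b was higher in 7 of 8 PTE- mice as well (log2 fold change 1.09, SE 0.30), and C3 in 7 of 8 with a log2 fold change of 2.30 (SE 1.79). For these 4 genes the difference between PTE+ and PTE- mice had unadjusted p-values of 0.935 (Snhg11), 0.672 (Agt), 0.474 (C4b) and 0.756 (C3) in edgeR, which does not show that the effects were alike.

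Some other named genes had different side differences in PTE+ and PTE- mice at an unadjusted p only. They were named by their p within PTE+ mice, so the same PTE+ values enter both comparisons. Cables1, Thbs1, Ogdh, Gpr34 and Hspa5 also had an unadjusted p under 0.05 in edgeR. Within PTE+ mice, Gjb6 and S100b each kept an unadjusted p under 0.05 in 1 of the 4 fits that left out a mouse. Gjb6 was higher ipsilaterally in 3 of 4 PTE+ mice and lower in 6 of 8 PTE- mice, a difference of 0.89 on the log2 scale (SE 0.30, unadjusted p = 0.00776, adjusted p = 1 from edgeR). Its own side difference in PTE- mice was -0.47 (SE 0.17). In sham mice Gjb6 was higher in 3 of 5, and its difference between PTE+ and sham mice had an unadjusted p of 0.154 in edgeR. S100b differed by -0.87 (SE 0.40, unadjusted p = 0.0418), with a side difference of 0.02 in PTE- mice. Pycr1 was higher in 4 of 8 PTE- and 3 of 5 sham mice, and its difference from PTE- mice had an unadjusted p of 0.0158.

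The 12 genes that the study names or stains for were also compared between statuses by exact permutation of the mice, in 24 tests of the side difference on the log2(CPM + 1) scale. Sema3f had a mean side difference of -3.33 ± 1.45 (SD) in PTE+ mice, but it was at 0 CPM on both sides in 7 of 8 PTE- and 2 of 5 sham mice. A side difference was therefore not measured there, and its permutation p is not given. The edgeR test of the difference from PTE- mice (unadjusted p of 0.103, adjusted p of 1) rests on the same mice and is not read. For Gfap the exact permutation p was 0.226 against PTE- and 0.5 against sham mice, and for Vim 0.0949 and 0.532, with 0.09 ± 0.16 (SD) in PTE+ and 1.29 ± 1.31 (SD) in PTE- mice.

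**Figure D5:**
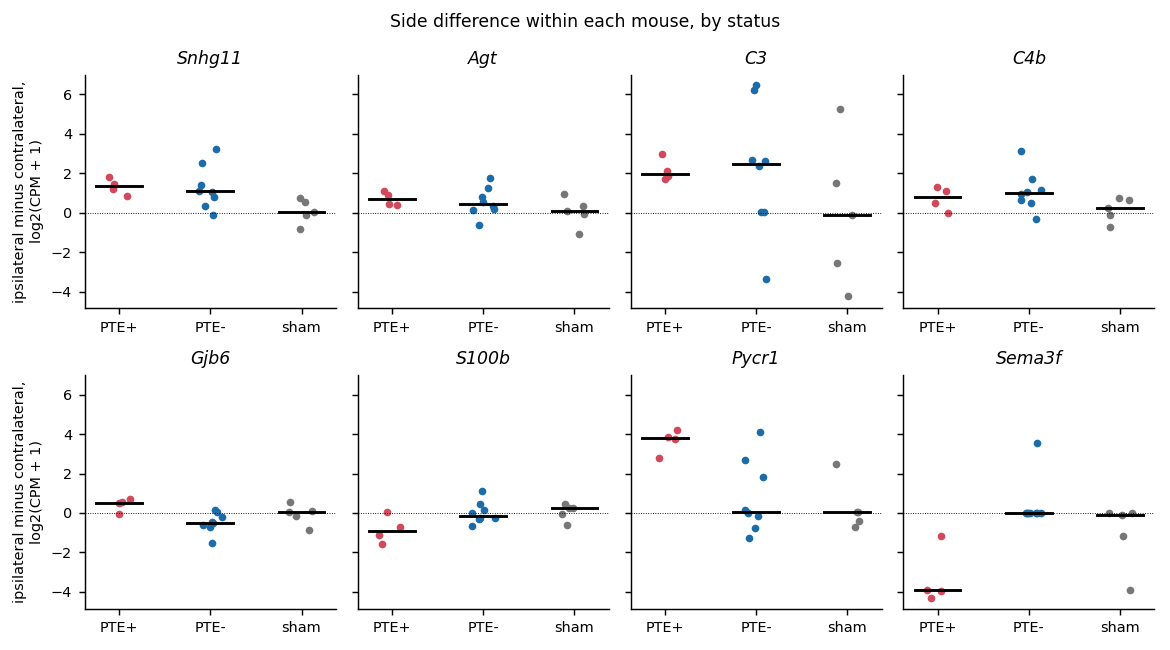
Side difference (ipsilateral minus contralateral, log2(CPM + 1)) of 8 genes in each of 4 PTE+, 8 PTE- and 5 sham mice, with the median of each status as a bar. Snhg11, Agt, C3 and C4b are above 0 in at least 3 of 4 PTE+ and in 7 of 8 PTE- mice. Gjb6 is above 0 in 3 of 4 PTE+ and 3 of 5 sham mice and below 0 in 6 of 8 PTE- mice. Sema3f is below 0 in all 4 PTE+ mice.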

How the data were processed

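RNA of bead-isolated hippocampal astrocytes was sequenced, and 8 libraries of 4 PTE+ mice were analysed, with the libraries of 8 PTE- and 5 sham mice for the comparison of statuses. Per the methods and the submitters' processing notes, reads were trimmed with Trim Galore 0.6.4 at a quality minimum of 30 and assigned to mm10 genes with RSEM 1.2.28 and Bowtie2 2.4.1. The annotation release and the strand setting of the counting are not given in the sources used here. The authors deposited expected counts per gene from RSEM, which were whole numbers as deposited, and TPM values per gene, which RSEM scales by transcript length and library. No columns were left unused (0). Gene positions come from GENCODE M21 (GRCm38), in which 21856 of 21975 gene IDs were found and 119 were not. No libraries were identical (0).

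The expected counts were normalized by TMM and tested, after filterByExpr, with the quasi-likelihood test of edgeR 4.0.16 in R 4.3.3, 2-sided, with Benjamini-Hochberg adjustment over all genes and the mouse as a block. The block has the mouse names in the labels as its source, since both libraries came from 1 animal. Deviations of the sides of 1 mouse from the side means correlated at 0.0961 to 0.212. Statuses were compared in 1 fit of the 34 libraries of 17 mice, with a side term for each status. Within-mouse differences are on the log2(CPM + 1) scale, which understates changes of low genes. The fit was also run on counts simulated without differences between mice, and no recovery rate from it is used here. Residual degrees of freedom were 3 and 14. Figures were drawn with matplotlib 3.10.9.

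Named genes were up to 10 in each direction with the smallest p that met the criteria of the methods, had more than 3 counts in the 4 libraries of the higher side and moved 1 way in 4 mice, up to 3 in each direction that met the criteria with at most 3 counts in a library of the higher side, up to 3 tested members of each list with the smallest p, and 12 genes of the study. Cell type markers and other genes outside these rules, such as C1qa, C1qb, C1qc, Col3a1, Nrp2 and Irak4, were named after their values were seen. The mice, the gene lists and these rules were chosen with earlier results of these data known. The alternatives were other normalizations, filters, tests (DESeq2 1.42.0, limma 3.58.1), units and pseudocounts, fits without the block and fits without each mouse. Intervals are at 95 percent. Aldoa and Trbc2 were not analysed here.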

Additional observations from a re-analysis of the deposited data

Results flagged for a closer look

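Groups of 4 mice, 172 in number, were tested for a value far from the others. Many groups were genes named by their values in these mice and some held values of 0, so no chance rate is given. In 13 of the 172 groups, 1 mouse stood apart. As within-mouse differences (log2(CPM + 1), ipsilateral minus contralateral), these were Fibin at 0 in a9_18, Tpi1 at -0.68 and Hspa5 at 0.16 in a9_19, Dusp1 at -1.68, Pf4 at -1.16 and Sema3f at -1.14 in a8_10, Gpr17 at 0.73, Ccnb1 at -0.91 and Timp1 at 0.94 in a9_17, and Clic6 at 5.14 in a9_18. Timp1 was at 0 CPM on both sides in 3 of the 4 mice. Dusp1, Tpi1 and Gpr17 each have exons that overlap a gene on the other strand. As the log2 ratio of summed TPM, the matrix genes of a9_19 were at 0.27, the perivascular macrophage genes of a9_18 at -10.94 and the ependymal and choroid plexus genes of a9_19 at 0.66. The macrophage sum of a9_18 was 39.2 TPM contralaterally and 0.02 TPM ipsilaterally.

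The side difference of Sema3f differed by -3.77 between PTE+ and PTE- mice (PTE+ minus PTE-, log2(CPM + 1) scale), and an exact permutation test of the mice picked it out. The gene was at 0 CPM on both sides in 7 of 8 PTE- mice, so the difference rests on mice in which a side difference could not be measured, and the test is not read. For the same difference edgeR gave an unadjusted p of 0.103, which rests on the same mice and is not read either.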

How the results depend on the processing

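The number of genes with an adjusted p under 0.05 for the PTE+ side difference was 0 in every alternative except DESeq2, which called 168. The mouse block changed no adjusted call, and without the block 205 genes met the criteria of the methods, of which 140 were among the 300. In that unpaired fit 64.4% of them were higher ipsilaterally. The count that met the criteria was 73 in the fit of 34 libraries, 1108 with DESeq2, 675 with voom quality weights, 696 on log2(TPM + 1) and 578 on log2(TPM + 0.1), and between 208 (without a9_17) and 280 (without a8_10) when 1 mouse was left out. The 92 genes that changed by at least 1 in every mouse became 286 at 0.5 and 1689 at any size, and 1052 in a8_10 and a9_18 alone, an alternative chosen after seeing the data, as were the list medians without mice. The difference from PTE- mice gave 2 calls with voom.

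Of 1894 alternative values of 128 named genes, 1882 kept their direction. The sign of Cxcl10 turned to 0.50 without the block, 0.31 with voom, 0.35 on log2(TPM + 1) and 0.38 on log2(TPM + 0.1), and that of Fos to 0.16 with voom. Leaving out 1 mouse gave Cxcl10 -2.01 to 1.12 (highest without a9_19), Fos -1.25 to 0.48 (without a9_18), Dcx -3.03 to 1.17 (without a9_19), Gfap -0.52 to 0.067 (without a9_17), Atp1b2 -0.12 to 0.022 (without a9_18), Rarres2 -0.41 to 0.044 (without a9_18) and Hba-a2 -1.16 to 0.0049 (without a9_17), all as log2 fold changes. The cause of these changes was not tested. Of the 20 named genes chosen for a small p and 1 direction in 4 mice, 15 kept an unadjusted p under 0.05 without each mouse in turn. Epas1, Il10ra, Slc9a3r2, Snu13 and Tfrc lost it in 1 fit each. Of 45 named genes that met the criteria, 29 lost it at least once. With 4 mice and a common coefficient of variation of 1.04, differences of 2-fold could be bounded for 18.2% of well-detected genes.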

Other observations

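Gene families that were chosen after the values had been seen add 3 descriptions. Of 63 nuclear-encoded subunits of the respiratory chain, 0 were higher and 5 lower by the criteria of the methods (1.01% of all genes were lower), 16 were lower in all 4 mice (7.21% of all genes) and 1 was higher (6.28%), and the median log2 fold change was -0.15, against -0.08 over all genes. The 5, with their log2 fold changes, were Cox4i1 (-0.53), Cox6a1 (-0.61), Cox8a (-0.72), Ndufa9 (-0.84) and Ndufb9 (-0.68). All 13 mitochondrially encoded genes had negative values as well (median -0.74), but 0 met the criteria and 0 were lower in all 4 mice.

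Of 19 cytosolic aminoacyl-tRNA synthetases, which charge tRNAs with amino acids, 3 were higher (1.18% of all genes) and 0 lower by the criteria. They were Vars (1.09), Qars (1.07) and Sars (0.56), with a median of 0.20 over the family. Hars2 (1.36) was the one of 17 mitochondrial synthetases to meet the criteria (1.18% of all genes were higher).

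The COPI coat carries vesicles from the Golgi to the endoplasmic reticulum. Of its 9 subunits, Copa (0.75) and Copg1 (0.60) were higher by the criteria (1.18% of all genes), while the median of the family was -0.03. These families were selected on the libraries they describe, so their counts are no independent evidence.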
